A study of Gallus gallus with 27 samples.

Results

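The amino acid stress response genes described here are the transcription factor genes ATF4 and CEBPB, the glutathione-degrading enzyme gene CHAC1, the synthesis enzyme genes ASNS, PHGDH and PSAT1, and the carrier genes SLC7A1, SLC7A11, SLC38A2 and SLC3A2. They were listed by symbol as genes of the ATF4 pathway, at a time when earlier results of these data were known. Of the 10 symbols, 9 had a row among the 14161 rows of the normalized table. SLC3A2 had none and was not analysed here.

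When amino acids run short, uncharged tRNA activates the kinase GCN2, which phosphorylates the alpha subunit of the translation factor eIF2; stress in the endoplasmic reticulum, heme shortage and double-stranded RNA act on the same site through sister kinases. General translation then slows, while the ATF4 message is translated more, so ATF4 activity need not follow the level of ATF4 mRNA. In mammals, ATF4 with partners of the C/EBP family binds the genes of amino acid synthesis enzymes, amino acid carriers and tRNA synthetases, and also CHAC1 and the stress factor DDIT3.

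The study followed chicken (Gallus gallus) fibroblasts through spontaneous immortalization and adaptation to growth in suspension, and sequenced total RNA of 27 libraries in 9 groups of 3 biological replicates. SCF2 and SCF4 were spontaneously immortalized embryonic fibroblast lines grown without anchorage, and their labels give opposite breeds in different fields, so that they are named by line number. CF2 (Broiler Ross 308) and CF4 (Israeli Baladi) were immortalized fibroblasts not marked as anchorage-independent, and CEF2 (Broiler Ross 308) and CEF4 (Israeli Baladi) were primary embryonic fibroblast cultures. SDF1 was the anchorage-independent and DF1 the other form of immortal fibroblasts of East Lansing Line 0, and CF2, CF4 and DF1 are called attached below. The last group, FAT (Israeli Baladi), is labelled Fat, and the labels do not say whether it was tissue or cultured cells. The labels name no edited or added gene. CEF and SCF cells are described as grown in DMEM at 39 °C with 10% FBS, 2 mM L-alanine-L-Glutamine and, at 200 units/mL, penicillin and streptomycin, and suspension medium also held 0.1% Pluronic F-68. For CF2, CF4, DF1, SDF1 and FAT, 39 °C and 10% serum are given too, but no amount of L-alanine-L-Glutamine was recorded. The immortal lines 2 and 4 had passed at least 120 population doublings, and the 3 libraries of an immortal group repeat 1 line.

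The CEF and SCF libraries formed one deposited set of 12 and the other 5 groups a second set of 15. The protocol of the second set also describes 7 days in medium with 200 µM oleic acid and 12 µg/mL soy lecithin, without saying which of its libraries received it. Values below are normalized reads, which are whole reads divided by 1 factor per library. Recovered reads numbered 4.61 to 10.4 M per library in FAT, where 1 read stood for 1.52 to 3.16 normalized reads, against 12.3 to 28.7 M in cultured libraries, where 1 read stood for 0.294 to 0.725. All 10 fibroblast markers had reads in every group, with summed levels of 60352 to 174263 in the immortal lines, 204027 to 339211 in FAT and 652861 or more in CEF. The 5 cartilage markers summed to 10.6 to 43.2 in the immortal lines, against 228154 to 350997 in CEF4 and 6439 to 7254 in CEF2, and SOX9 had no read in any immortal line. The 6 muscle markers summed to at most 5.98 in the immortal lines, against 1857 to 2272 in CEF2. FAT libraries held summed markers of muscle (6 genes) of 6804 to 168408, of adipocytes (6) of 68213 to 290852, of macrophages (4) of 9457 to 22964 and of endothelium (4) of 5792 to 22659, with no marker at 0. FAT replicate 3 had the highest muscle sum, against 6804 and 14468 in the others, and the lowest adipocyte, macrophage and endothelial sums. Its log2 values correlated at 0.915 to 0.932 with the other FAT libraries. DF1 replicate 3 stood apart from its group: its log2 values correlated at 0.954 to 0.956 with the other DF1 libraries and at 0.966 with a CF2 library. Its endothelial markers summed to 2473, against 152 and 173 in the others. Fibroblast markers summed to 154517, against 64369 and 72181, and adipocyte markers to 3.87, against 51.4 and 56.6. Changes between SDF1 and DF1 are therefore given with and without DF1 replicate 3.

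Levels of a gene were compared between groups and never between genes, since the values are not per length. ATF4 mRNA varied least over the 9 groups, with a highest group mean 1.88-fold above the lowest, and PHGDH varied most, with 3506-fold. Without SCF2 replicate 2 the range of PHGDH was 6306-fold. Between these lay SLC38A2 with 3.65-fold, CEBPB with 7.30-fold, PSAT1 with 7.92-fold, ASNS with 11.5-fold, SLC7A1 with 38.3-fold, SLC7A11 with 71.6-fold and CHAC1 with 96.1-fold. The range of SLC7A11 rests on 2, 1 and 0 reads in FAT and was 152-fold without FAT replicate 1, above that of CHAC1. That of SLC7A1 rests on 6, 7 and 29 reads in FAT. SDF1 had the highest group mean of CHAC1, ASNS, CEBPB, SLC7A1 and PSAT1, CEF4 that of SLC7A11, CEF2 that of PHGDH, CF4 that of SLC38A2 and FAT that of ATF4. FAT had the lowest mean of CHAC1, ASNS, SLC7A1, SLC7A11, SLC38A2 and PSAT1. Normalized reads summed to 13.4 to 15.9 M per library in FAT and 8.03 to 12.1 M in cultured libraries. The orders and ranges hold for values as deposited and were not recomputed under another scaling. The place of FAT for ATF4 is open to this, since its change against CF4 was 0.80 as deposited and -0.27, not called, under quantile normalization. Because these are bulk samples, fewer cells of a type and less RNA per cell cannot be told apart in any of these values.

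**Figure D1:**
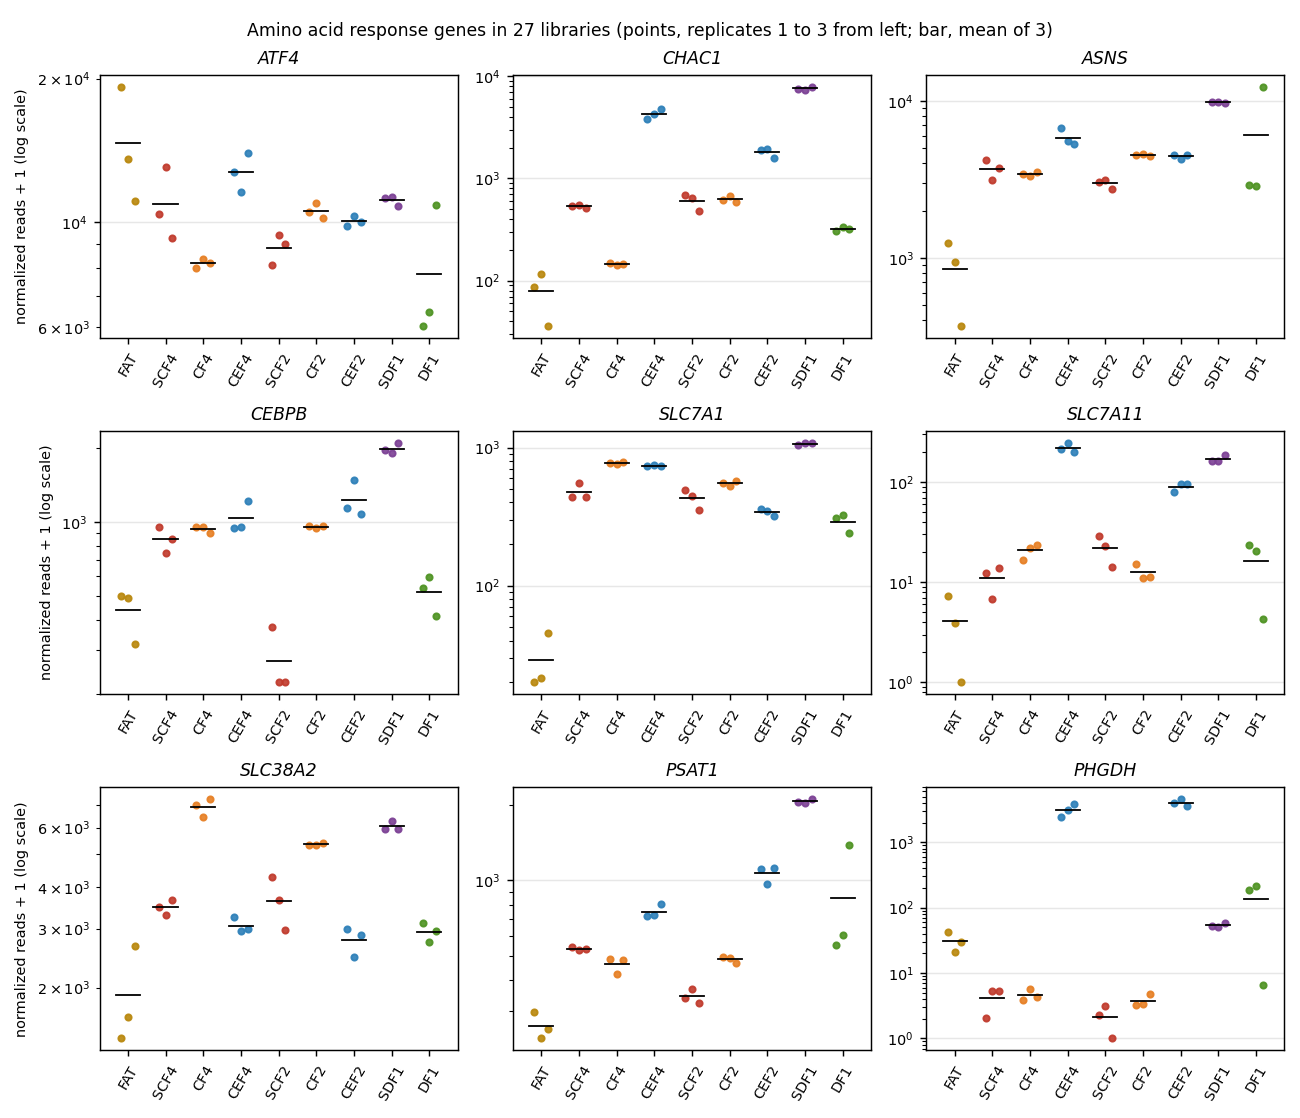
Normalized reads plus 1 (log scale) of the 9 genes in each of the 27 libraries, with replicates 1 to 3 from left to right in each group and a bar at the group mean. PHGDH lies at 2401 or more in the 6 primary libraries and below 5 in the 12 libraries of lines 2 and 4, and CHAC1 is highest in SDF1.

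The order of the 9 group means, from low to high, differed from gene to gene. For ATF4 it was DF1, CF4, SCF2, CEF2, CF2, SCF4, SDF1, CEF4 and FAT, and the libraries overlapped between DF1 and CF4, CF4 and SCF2, CEF2 and CF2, CF2 and SCF4, SCF4 and SDF1, and CEF4 and FAT. CEBPB ran SCF2, FAT, DF1, SCF4, CF4, CF2, CEF4, CEF2 and SDF1, and the libraries overlapped between SCF2 and FAT, FAT and DF1, SCF4 and CF4, CF4 and CF2, CF2 and CEF4, and CEF4 and CEF2. CHAC1 ran FAT, CF4, DF1, SCF4, SCF2, CF2, CEF2, CEF4 and SDF1, and the libraries overlapped between SCF4 and SCF2, and SCF2 and CF2. SDF1 thus stood clear of its neighbours for CEBPB and CHAC1 but not for ATF4. ASNS ran FAT, SCF2, CF4, SCF4, CEF2, CF2, CEF4, DF1 and SDF1, and the libraries overlapped between CF4 and SCF4, CEF2 and CF2, CEF4 and DF1, and DF1 and SDF1. PSAT1 ran FAT, SCF2, CF4, CF2, SCF4, CEF4, DF1, CEF2 and SDF1, and the libraries overlapped between CF4 and CF2, CEF4 and DF1, and DF1 and CEF2. PHGDH ran SCF2, CF2, SCF4, CF4, FAT, SDF1, DF1, CEF4 and CEF2, and the libraries overlapped between CF2 and SCF4, SCF4 and CF4, SDF1 and DF1, and CEF4 and CEF2. Among the carriers, SLC7A1 ran FAT, DF1, CEF2, SCF2, SCF4, CF2, CEF4, CF4 and SDF1, and the libraries overlapped between DF1 and CEF2, CEF2 and SCF2, SCF2 and SCF4, and SCF4 and CF2. SLC7A11 ran FAT, SCF4, CF2, DF1, CF4, SCF2, CEF2, SDF1 and CEF4, and the libraries overlapped between FAT and SCF4, SCF4 and CF2, CF2 and DF1, DF1 and CF4, and CF4 and SCF2. For SLC38A2 the order was FAT, CEF2, DF1, CEF4, SCF4, SCF2, CF2, SDF1 and CF4, and the libraries overlapped between FAT and CEF2, CEF2 and DF1, DF1 and CEF4, and SCF4 and SCF2. When DF1 replicate 3 was left out, DF1 had place 2 of 9 from below for ASNS, against 8 with it, place 6 for SLC7A11, against 4, and place 6 for PSAT1, against 7. Its place was the same for the other 6 genes, and the range of ATF4 was 2.34-fold.

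The suspension lines were set against the primary culture of the same number to ask what distinguishes an immortal, anchorage-independent line from the cells it is named for. Most of the genes were lower in the suspension lines: PHGDH almost vanished in both lines, CHAC1, SLC7A11, ASNS and PSAT1 fell in both, CEBPB fell in line 2 and SLC7A1 in line 4. In SCF2 against CEF2, 7 of the 9 genes were called at an adjusted p under 0.05, 1 higher and 6 lower, where 70.6% of all rows tested were called, 32.1% higher and 38.6% lower. For SCF4, set against CEF4, 6 genes passed, all lower, where 64.5% of all rows did, 30.8% higher and 33.7% lower. None was higher there, also none at an unadjusted p under 0.05 and none with edgeR. The share called was thus near that of all rows, and the median log2 change of the 9 genes was -1.59 in line 2 and -0.64 in line 4, against -0.06 and -0.02 over all rows. All 9 genes passed the filter on low values in every comparison. The p-values are from limma on log2 of normalized reads plus 1, adjusted over all rows by Benjamini and Hochberg, and measure the spread between libraries of a group, not between independently derived lines.

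Under quantile normalization the median change over all rows shifted by over 0.1 in several comparisons, to 0.20 against -0.06 as deposited in SCF2 against CEF2, 0.17 against -0.02 in SCF4 against CEF4, -0.05 against 0.09 in SDF1 against DF1, -0.22 against 0.40 in FAT against CF4, 0.19 against -0.16 in CF2 against CEF2 and 0.17 against -0.10 in CF4 against CEF4. The share of called rows that were higher came to 59.6% against 45.4%, 57.5% against 47.7%, 47.2% against 59.5%, 43.0% against 62.3%, 58.5% against 42.7% and 57.3% against 44.9% in the same order. In SCF4 against CF4, TMM and DESeq2 brought the median to 0.01 each, against 0.11, and the share higher to 49.9% and 49.7%, against 60.5%. In SCF2 against CF2 the share higher was 49.7% with TMM and 50.4% under quantile normalization, against 58.4%. DESeq2 brought the share in SDF1 against DF1 to 47.7% and the median to -0.05, and in FAT against CF4 the median was 0.07 with TMM, 0.17 with edgeR and 0.27 with DESeq2. Small changes on the log2 scale are therefore to be read against these shifts.

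Among the regulators, ATF4 had 8095, 9385 and 8997 normalized reads in SCF2, against 9804, 10300.3 and 9990.00 in CEF2. In line 4 it had 10392, 13023 and 9239 in SCF4, against 12746, 11532 and 13978 in CEF4. The changes of -0.19 ± 0.08 (log2 with SE, adjusted p = 0.0779) and -0.24 ± 0.14 (log2 with SE, adjusted p = 0.169) did not pass the test, although no SCF2 library reached a CEF2 library. In line 2 the change of ATF4 was called under TMM scaling, edgeR and DESeq2, at -0.27 in each. CEBPB, a C/EBP factor that is itself induced by ATF4 in mammalian cells, had 372, 223 and 222 in SCF2, against 1138, 1475 and 1074 in CEF2, a change of -2.20 ± 0.21 (log2 with SE, adjusted p = 3.2e-05). Each SCF2 library was below the lowest CEF2 library. In line 4, CEBPB had 949.9, 749.6 and 854 in SCF4, against 941, 952 and 1216 in CEF4, and the change of -0.28 ± 0.14 (log2 with SE, adjusted p = 0.109) did not pass the test. The change of CEBPB was higher in line 4 than in line 2 by 1.92 ± 0.27 (log2 with SE, adjusted p = 8.18e-05) in a test of the difference.

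CHAC1, a cytosolic enzyme that breaks down glutathione and a sensitive ATF4 target in mammals, had 690.4, 642 and 480.2 normalized reads in SCF2, against 1903, 1941 and 1584 in CEF2. In line 4 it had 537, 543 and 512 in SCF4, against 3846, 4213 and 4761 in CEF4. The suspension libraries of both lines lay in one range below all primary libraries, while the primary cultures differed. The fall was 3.00-fold in line 2, a change of -1.59 ± 0.15 (log2 with SE, adjusted p = 2.47e-05), and 8.05-fold in line 4, a change of -3.00 ± 0.11 (log2 with SE, adjusted p = 5.98e-08). The lines differed by -1.41 ± 0.19 (log2 with SE, adjusted p = 5.46e-05) in this change, line 4 minus line 2.

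PHGDH encodes the first enzyme of serine synthesis from a glycolytic intermediate. It had 1.28, 2.18 and 0 normalized reads in SCF2, from 3, 5 and 0 reads, against 4009.6, 4603 and 3533 in CEF2. In line 4 it had 1.03, 4.35 and 4.28 in SCF4, from 3, 6 and 10 reads, against 2401, 3068 and 3838 in CEF4. No suspension library came near a primary library, and the means differed by 3506-fold in line 2 and 963-fold in line 4. On the log2 scale with 1 added, which understates the change of a gene with few reads, PHGDH changed by -11.02 ± 0.38 (log2 with SE, adjusted p = 7.13e-08) in line 2 and -9.63 ± 0.37 (log2 with SE, adjusted p = 9.58e-08) in line 4. The difference between the lines, 1.40 ± 0.58 (log2 with SE, adjusted p = 0.0706), did not pass the test but did with a pseudocount of 5 and with DESeq2 (adjusted p = 0.0439 and 0.0429) and without SCF4 replicate 1 or SCF2 replicate 2 (0.0115 and 0.0265), and it rests on 19 reads in SCF4 and 8 in SCF2.

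PSAT1, which encodes the next enzyme of the serine route, had 338, 368 and 322 normalized reads in SCF2, against 1112, 966 and 1120.4 in CEF2, and changed by -1.63 ± 0.10 (log2 with SE, adjusted p = 1.68e-06). In line 4 it had 539, 525 and 531 in SCF4, against 723, 724 and 801 in CEF4, and changed by -0.49 ± 0.10 (log2 with SE, adjusted p = 0.00218). No suspension library reached the primary libraries in either line, and the fall was smaller in line 4 by 1.14 ± 0.14 (log2 with SE, adjusted p = 1.76e-05). ASNS, asparagine synthetase, had 3054, 3152 and 2763 in SCF2, against 4517, 4282 and 4513 in CEF2, and 4171, 3139.7 and 3742 in SCF4, against 6720.4, 5513 and 5275 in CEF4. The groups did not overlap, and the changes were -0.57 ± 0.08 (log2 with SE, adjusted p = 0.00033) and -0.67 ± 0.14 (log2 with SE, adjusted p = 0.00276). When all 27 libraries were fitted together, neither fall of ASNS was called (adjusted p = 0.21 and 0.145), in a fit that also holds the spread of ASNS in DF1 and FAT.

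Among the carriers, SLC7A11, the cystine and glutamate exchanger that feeds glutathione synthesis, had 27.8, 21.8 and 13.3 normalized reads in SCF2, against 78.4, 93.7 and 94.7 in CEF2. In line 4 it had 11.3, 5.80 and 12.8 in SCF4, against 214, 246 and 201 in CEF4. Every suspension library was below every primary library, and the changes were -2.08 ± 0.26 (log2 with SE, adjusted p = 0.000157) and -4.39 ± 0.29 (log2 with SE, adjusted p = 2.5e-06), with a difference of -2.31 ± 0.41 (log2 with SE, adjusted p = 0.000551) between the changes, line 4 minus line 2. SLC7A1, a carrier of arginine and lysine, had 489, 448 and 351 in SCF2, against 360.3, 348 and 316 in CEF2, and 438, 555 and 437 in SCF4, against 733, 751 and 729 in CEF4. It changed in line 4 by -0.64 ± 0.12 (log2 with SE, adjusted p = 0.00175), and its change in line 2, 0.32 ± 0.14 (log2 with SE, adjusted p = 0.0652), passed only under quantile normalization, with a replicate block or without SCF2 replicate 3 (0.0032 to 0.0447). The difference between the lines was -0.95 ± 0.19 (log2 with SE, adjusted p = 0.0011). SLC38A2, a sodium-coupled carrier of small neutral amino acids, had 4264, 3653 and 2979 in SCF2, against 2996, 2476 and 2864 in CEF2, and 3489, 3294 and 3657 in SCF4, against 3250.2, 2944 and 2984 in CEF4. It was the 1 gene called higher, in line 2 by 0.38 ± 0.14 (log2 with SE, adjusted p = 0.0403), and this call was lost under TMM, quantile normalization, edgeR and DESeq2 (adjusted p = 0.0514 to 0.0999) and without SCF2 replicate 1 or 2 or CEF2 replicate 2 or 3. In line 4 its change of 0.19 ± 0.09 (log2 with SE, adjusted p = 0.114) passed only under quantile normalization (0.0342).

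When the changes of both lines were tested against each other, 5 of the 9 genes differed, where 39.2% of all rows did, 22% with a more positive and 17.3% with a more negative change in line 4: CEBPB and PSAT1 changed more positively in line 4, and CHAC1, SLC7A1 and SLC7A11 more negatively. The cartilage markers named above were also higher in CEF4 than in CEF2, and the muscle markers summed to at most 4.51 in CEF4, against 1857 or more in CEF2. The part of these markers in the differences was not tested.

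The authors' deposited table of each line lists 7 of the 9 genes, with ATF4 and SLC38A2 not among its 6424 genes. Its values are primary over suspension, read from a correlation of -0.981 and -0.983 with the suspension over primary values here. In the authors' deposited table PHGDH had log2 values of 10.81 in line 2 and 9.08 in line 4, CHAC1 1.63 and 2.96, and SLC7A11 2.05 and 4.54. In the authors' deposited table CEBPB of line 4 had a log2 value of 0.43 with an adjusted p of 0.0272, so it passed 0.05 there and not in the limma fit.

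**Figure D2:**
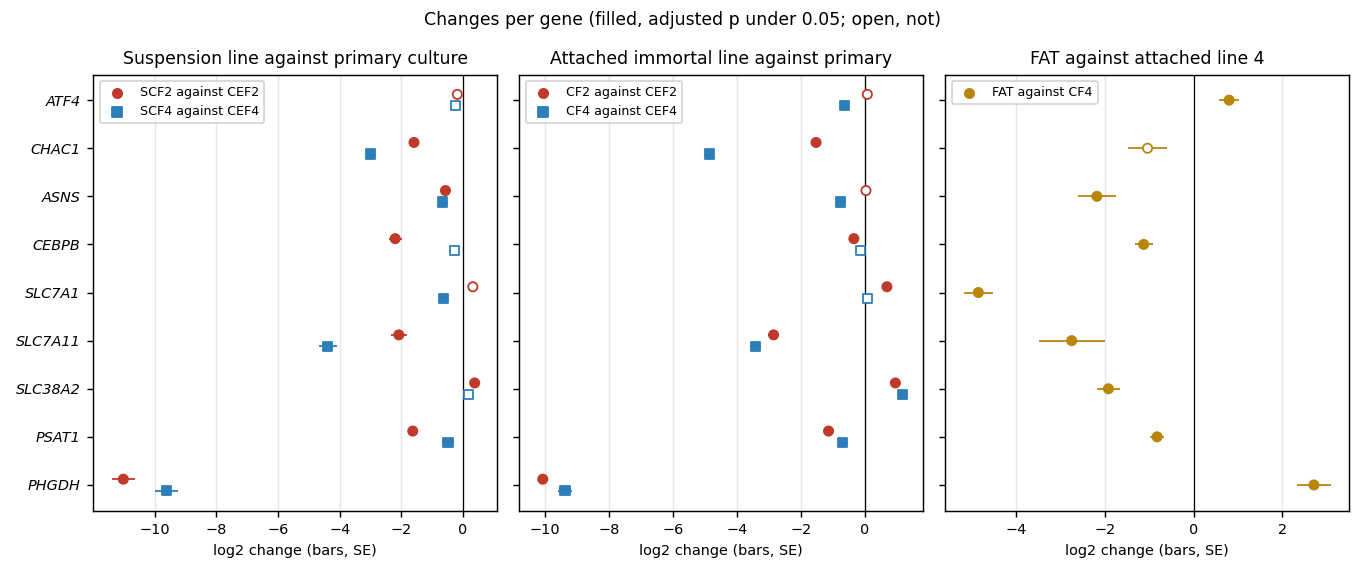
Log2 changes with SE of the 9 genes in SCF against CEF (left), CF against CEF (middle) and FAT against CF4 (right); filled points passed an adjusted p of 0.05 and open points did not. PHGDH lies between -9.38 and -11.02 in the immortal lines of both numbers and at 2.71 in FAT against CF4.

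The attached immortal lines were set against the same primary cultures, so these results share the CEF libraries with those above. CF and CEF come from different deposited sets, and culture state and set cannot be told apart. PHGDH had few reads in both, as in the suspension lines, CHAC1, SLC7A11 and PSAT1 fell in both lines, and SLC38A2 rose in both. In CF2 against CEF2, 7 of 9 genes were called, 2 higher and 5 lower, where 80.8% of all rows were called, 34.5% higher and 46.3% lower. In CF4 against CEF4, 7 were called, 1 higher and 6 lower, where 73.1% of all rows were called, 32.8% higher and 40.3% lower. The median log2 change of the 9 genes was -0.35 and -0.70, against -0.16 and -0.10 over all rows.

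PHGDH had 2.21, 2.42 and 3.75 normalized reads in CF2 and 2.90, 4.80 and 3.24 in CF4, from 7 to 13 reads per library. This was 1449-fold below CEF2 and 851-fold below CEF4. PSAT1 had 491, 487 and 467 in CF2 and 484, 420.4 and 478 in CF4, all below the lowest library of the primary culture of the same number, and changed by -1.14 ± 0.07 (log2 with SE, adjusted p = 2.39e-07) and -0.70 ± 0.09 (log2 with SE, adjusted p = 0.000152). ASNS had 4539.6, 4553 and 4476 in CF2, overlapping CEF2, and changed by 0.03 ± 0.04 (log2 with SE, adjusted p = 0.562), which did not pass the test. In CF4 it had 3443, 3307 and 3495, all below CEF4, and changed by -0.77 ± 0.09 (log2 with SE, adjusted p = 0.000162), which was not called with all 27 libraries in the fit (adjusted p = 0.0916).

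CHAC1 had 611, 667 and 593 normalized reads in CF2 and 149, 142 and 146 in CF4. The CF4 libraries were the lowest of all cultured libraries, 29.3-fold below CEF4 on average, against 2.90-fold for CF2 below CEF2. The log2 changes were -1.53 ± 0.08 (log2 with SE, adjusted p = 1.28e-07) and -4.86 ± 0.09 (log2 with SE, adjusted p = 9.16e-09). ATF4 had 7994, 8368 and 8179 in CF4, all below CEF4, and its change of -0.64 ± 0.08 (log2 with SE, adjusted p = 0.000138) turned to 0.09 (adjusted p = 0.232) under quantile normalization. In CF2 it had 10504, 10957 and 10171 and its change was 0.07 ± 0.05 (log2 with SE, adjusted p = 0.169), which passed the test under TMM, quantile normalization and edgeR (adjusted p = 0.00128 to 0.0372). CEBPB changed by -0.35 ± 0.10 (log2 with SE, adjusted p = 0.0117) in line 2, where it passed the test but not with all 27 libraries in the fit (0.119), and by -0.14 ± 0.11 (log2 with SE, adjusted p = 0.266) in line 4, where it did not.

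SLC38A2 had 5311, 5327 and 5399 normalized reads in CF2 and 7007, 6471 and 7308 in CF4, above every library of its primary culture. The rise was 0.95 ± 0.07 (log2 with SE, adjusted p = 9.06e-07) for CF2 and 1.18 ± 0.07 (log2 with SE, adjusted p = 2.48e-06) for CF4, and CF4 had the highest level of this carrier among all groups. SLC7A11 fell, with 14.2, 10.0 and 10.2 in CF2 and 15.8, 21.0 and 22.4 in CF4 and changes of -2.86 ± 0.17 (log2 with SE, adjusted p = 2.77e-07) and -3.43 ± 0.17 (log2 with SE, adjusted p = 1.05e-06). SLC7A1 had 548, 527 and 569.8 in CF2, above all CEF2 libraries, and rose by 0.68 ± 0.07 (log2 with SE, adjusted p = 1.08e-05). In CF4 it had 772, 756 and 786, also above all CEF4 libraries, but the change of 0.06 ± 0.06 (log2 with SE, adjusted p = 0.369) did not pass the test.

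SDF1 against DF1 sets growth without anchorage beside attached growth of an established line, within one deposited set. The protocol does not say whether either group received the oleic acid medium, and each group repeats 1 line. Medium, line and growth mode therefore cannot be told apart. CHAC1 was 23.8-fold higher in SDF1 than in DF1, and CEBPB, SLC7A1, SLC7A11, SLC38A2 and PSAT1 rose too. Of the 9 genes, 6 were called, all higher (none was lower, also not at an unadjusted p under 0.05 or with edgeR), where 31.6% of all rows were called, 18.8% higher and 12.8% lower. The median log2 change of the 9 genes was 1.42, against 0.09 over all rows. Without DF1 replicate 3, all 9 were called, 8 higher and PHGDH lower, where 73.4% of all rows were called and 40.1% were higher and 33.3% lower. That fit has 2 DF1 libraries with little spread, and the SDF1 libraries differed less from each other than those of any other group, with a median chi-square per row of 0.633 to 0.865 between libraries.

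CHAC1 had 7451, 7377 and 7906 normalized reads in SDF1, against 308, 331 and 318 in DF1. All SDF1 libraries were above every other library of the series and DF1 replicate 3 was like the others of its group, and the change was 4.57 ± 0.08 (log2 with SE, adjusted p = 3.79e-05) with all libraries and 4.56 ± 0.05 (adjusted p = 3.72e-11) without DF1 replicate 3. CEBPB had 1954, 1906 and 2097 in SDF1, against 537, 598 and 411 in DF1, and rose by 1.96 ± 0.16 (log2 with SE, adjusted p = 0.00128), or by 1.81 ± 0.06 (adjusted p = 1.52e-08) without DF1 replicate 3. ATF4 had 11215, 11273 and 10805 in SDF1, against 6038, 6450.4 and 10869 in DF1, where replicate 3 lay within the range of SDF1. Its change of 0.56 ± 0.24 (log2 with SE, adjusted p = 0.131) did not pass the test with all libraries and was 0.83 ± 0.05 (adjusted p = 2.38e-07) without that library, and it passed with all 27 libraries in the fit (0.0199).

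ASNS had 9818, 9793 and 9712 normalized reads in SDF1, against 2889, 2864 and 12334 in DF1. DF1 replicate 3 was above all SDF1 libraries and the other DF1 libraries far below, so the change was 1.06 ± 0.59 (log2 with SE, adjusted p = 0.223) with all libraries and 1.76 ± 0.04 (adjusted p = 1.14e-09) without it. The ASNS change passed with all 27 libraries in the fit (adjusted p = 0.0323). PSAT1 had 2059.98, 2030.1 and 2117 in SDF1, against 549, 606 and 1389 in DF1, and no DF1 library reached SDF1. Its change of 1.42 ± 0.36 (log2 with SE, adjusted p = 0.0319) was not called with edgeR, with a replicate block or without any 1 library other than DF1 replicate 3 (adjusted p = 0.0526 to 0.109), and it was 1.84 ± 0.06 (adjusted p = 6.44e-09) without DF1 replicate 3. PHGDH had 51.7, 50.1 and 57.0 in SDF1, against 184, 212 and 5.53 in DF1. The SDF1 libraries lay between DF1 replicate 3 and the others, and the change was -0.24 ± 1.37 (log2 with SE, adjusted p = 0.912) with all libraries and -1.88 ± 0.11 (adjusted p = 2.47e-07) without DF1 replicate 3.

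The carriers were higher in SDF1. SLC7A1 had 1044, 1070.5 and 1082 normalized reads in SDF1, against 306, 323 and 240.5 in DF1, and rose by 1.89 ± 0.13 (log2 with SE, adjusted p = 0.001), or by 1.76 ± 0.05 (adjusted p = 5.66e-09) without DF1 replicate 3. SLC38A2 had 5934, 6266 and 5964 in SDF1, against 3112, 2739.7 and 2943 in DF1, and rose by 1.05 ± 0.09 (log2 with SE, adjusted p = 0.0015), or by 1.05 ± 0.06 (adjusted p = 2.56e-07) without DF1 replicate 3. The groups of both genes were apart by more than their own range. SLC7A11 had 162, 161 and 184 in SDF1, against 22.4, 19.6 and 3.32 in DF1, and rose by 3.73 ± 0.67 (log2 with SE, adjusted p = 0.011). DF1 replicate 3 was the lowest library, the change was 2.95 ± 0.11 (adjusted p = 2.3e-08) without it, and the call was lost without any 1 SDF1 library (adjusted p = 0.0526 to 0.0568).

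The same step from attached growth to suspension was also compared in lines 2 and 4. The directions differed from those in SDF1 for the genes called in line 2 and for SLC7A1, SLC7A11 and SLC38A2 in line 4. CHAC1 and ATF4 were higher in SCF4, as in SDF1. In SDF1 against DF1, ATF4 and ASNS did not pass the test with all libraries. SCF and CF come from different sets, so that set and growth mode cannot be told apart. These comparisons share the SCF and CF libraries with those above. In SCF2 against CF2, 6 of 9 genes were called, all lower, where 54.1% of all rows were called, 31.6% higher and 22.5% lower. Setting SCF4 beside CF4, 5 were called, 2 higher and 3 lower, where 56.4% of all rows were called, 34.1% higher and 22.3% lower. SLC7A11 was higher in SCF2 at an unadjusted p under 0.05 and with edgeR, and is described below. The median of the 9 genes was -0.49 and -0.14, against 0.07 and 0.11 over all rows. With all 27 libraries in the fit, 2 genes in line 2 (CEBPB and SLC38A2, where 31.9% of all rows were called, 19.1% higher and 12.8% lower) and 3 in line 4 (CHAC1, SLC7A1 and SLC38A2, where 31.3% were, 18.9% higher and 12.4% lower) were called.

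SLC38A2 and SLC7A1 fell in both lines in this step. SLC38A2 changed by -0.57 ± 0.12 (log2 with SE, adjusted p = 0.00383) in line 2 and -0.99 ± 0.08 (log2 with SE, adjusted p = 2.43e-05) in line 4, and the suspension libraries were below all attached libraries in each. SLC7A1 changed by -0.37 ± 0.12 (log2 with SE, adjusted p = 0.0308) and -0.70 ± 0.10 (log2 with SE, adjusted p = 0.000532), and the line 2 call was lost when SCF2 replicate 2 or any 1 CF2 library was left out (adjusted p = 0.0578 to 0.103). CHAC1 rose in line 4 by 1.86 ± 0.08 (log2 with SE, adjusted p = 2.46e-06), 3.64-fold, and had -0.06 (adjusted p = 0.72) in line 2. CEBPB changed in line 2 by -1.85 ± 0.18 (log2 with SE, adjusted p = 5.94e-05) and had -0.14 (adjusted p = 0.25) in line 4. ASNS and PSAT1 fell in line 2, with changes of -0.60 ± 0.07 (log2 with SE, adjusted p = 0.000203) and -0.49 ± 0.08 (log2 with SE, adjusted p = 0.000951). In line 4 they had 0.10 (adjusted p = 0.442) and 0.21 (adjusted p = 0.0596).

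The few reads of PHGDH in these groups, 8 reads in SCF2 and 25 in CF2, 19 in SCF4 and 33 in CF4, gave changes of -0.95 ± 0.48 (log2 with SE, adjusted p = 0.128) and -0.25 ± 0.43 (log2 with SE, adjusted p = 0.651), and a difference was not detectable at this depth except in line 2 under quantile normalization (adjusted p = 0.0456). ATF4 changed by -0.26 ± 0.08 (log2 with SE, adjusted p = 0.0233) in line 2 and 0.40 ± 0.12 (log2 with SE, adjusted p = 0.0181) in line 4, in opposite directions. The line 2 call was lost without any 1 CF2 library (adjusted p = 0.0603 to 0.109), and the line 4 call was lost under TMM, quantile normalization, edgeR and DESeq2 (0.0574 to 0.276) and without CF4 replicate 1 or 3. SLC7A11 changed by 0.77 ± 0.29 (log2 with SE, adjusted p = 0.0509) in line 2, which passed only with edgeR, DESeq2, a pseudocount of 5, a replicate block or without SCF2 replicate 3, and by -0.96 ± 0.30 (log2 with SE, adjusted p = 0.0219) in line 4, a call lost without CF4 replicate 2 or 3.

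The change in DF1 was tested against the mean change of lines 2 and 4, with the limits of set, medium and line given above. It was more positive for 7 of the 9 genes and more negative for none, also none at an unadjusted p under 0.05 or with edgeR, where 46.2% of all rows were called, 22.7% more positive and 23.5% more negative. Without DF1 replicate 3, all 9 were called, 8 more positive and PHGDH more negative, where 62.7%, 29.3% and 33.4% of all rows were. The differences were 3.67 ± 0.13 (log2 with SE, adjusted p = 2.67e-11) for CHAC1, 3.83 ± 0.60 (log2 with SE, adjusted p = 9.47e-05) for SLC7A11 and 2.96 ± 0.21 (log2 with SE, adjusted p = 3.99e-08) for CEBPB. They were 2.42 ± 0.16 (log2 with SE, adjusted p = 2.09e-08) for SLC7A1, 1.83 ± 0.13 (log2 with SE, adjusted p = 4.92e-08) for SLC38A2, 1.56 ± 0.28 (log2 with SE, adjusted p = 0.000316) for PSAT1 and 1.31 ± 0.45 (log2 with SE, adjusted p = 0.0267) for ASNS. Leaving out DF1 replicate 3, they were 3.67 ± 0.13 (adjusted p = 1.27e-13) for CHAC1, 3.04 ± 0.35 (adjusted p = 6.92e-07) for SLC7A11 and 1.98 ± 0.10 (adjusted p = 6.86e-12) for PSAT1, and 2.80 ± 0.19 (adjusted p = 4.61e-10) for CEBPB, 2.29 ± 0.14 (adjusted p = 1.45e-10) for SLC7A1 and 1.83 ± 0.13 (adjusted p = 1.07e-09) for SLC38A2. The ASNS difference was lost with edgeR and DESeq2 (adjusted p = 0.114 and 0.0991), without any 1 SDF1 library (0.0511 to 0.0526) and without DF1 replicate 1 or 2 (0.0912 and 0.0891), and was 2.01 ± 0.11 (adjusted p = 3.18e-11) without DF1 replicate 3. The PHGDH difference, 0.36 ± 1.14 (log2 with SE, adjusted p = 0.823), was -1.28 ± 0.51 (adjusted p = 0.0369) without that library.

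**Figure D3:**
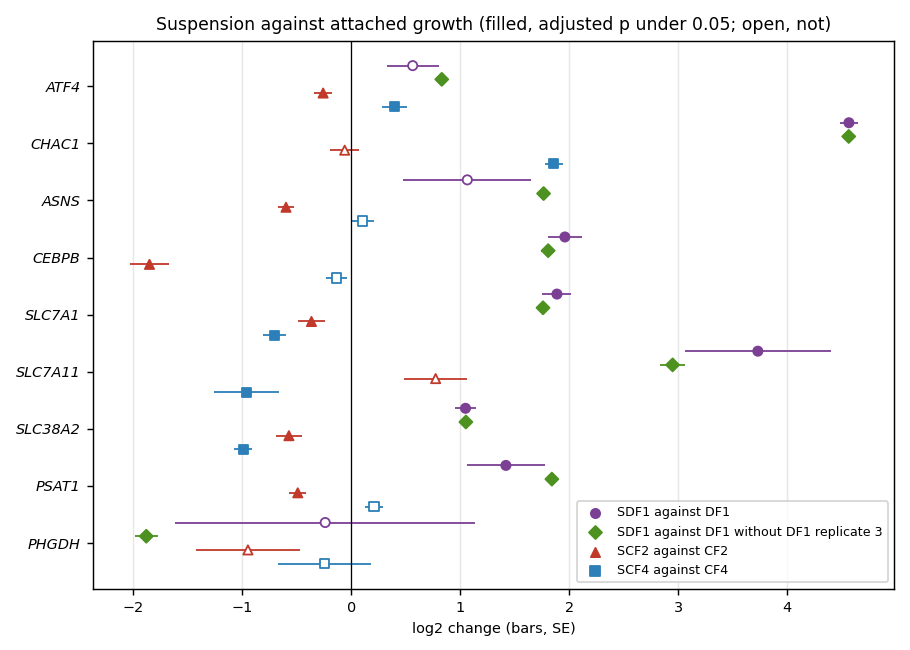
Log2 changes with SE from attached growth to suspension for SDF1 against DF1 with and without DF1 replicate 3, SCF2 against CF2 and SCF4 against CF4; filled points passed an adjusted p of 0.05. CHAC1 lies at 4.57 in SDF1 against DF1, -0.06 in SCF2 against CF2 and 1.86 in SCF4 against CF4.

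FAT was set against CF4, the attached immortal line with the same breed label and in the same deposited set. FAT had the lowest group means of ASNS, SLC7A1, SLC7A11 and SLC38A2 in the series. Its libraries overlapped those of SCF4 and DF1 for SLC7A11 and those of CEF2 for SLC38A2. Of the 9 genes, 8 were called, 2 higher and 6 lower, where 68.5% of all rows were called, 42.7% higher and 25.8% lower. The median of the 9 genes was -1.13, against 0.40 over all rows. FAT and CF4 also differ in the cell types their markers name, as given above: muscle, adipocyte, macrophage and endothelial markers summed to at most 2.35, 33.2, 62.4 and 19.4 in CF4, where MYOG, MYF5, FABP4, LPL and C1QA had no read. The part of these cells in the result was not tested. CF4 also entered comparisons above.

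SLC7A1 had 19.0, 20.3 and 44.1 normalized reads in FAT, from 6, 7 and 29 reads, against 772, 756 and 786 in CF4. This was a fall of 27.7-fold and a change of -4.85 ± 0.33 (log2 with SE, adjusted p = 4e-05). SLC38A2 had 1410.2, 1634 and 2655 in FAT, against 7007, 6471 and 7308 in CF4, and changed by -1.92 ± 0.25 (log2 with SE, adjusted p = 0.000688). The FAT libraries of both carriers were below all CF4 libraries. SLC7A11 had 3 reads over the FAT libraries, against 182 in CF4, a ratio of 0.115 with an exact 95% counting interval of 0.0235 to 0.342, and its call was lost without CF4 replicate 2 or 3 (adjusted p = 0.0504 and 0.0537). ASNS had 1243, 938 and 366 in FAT, against 3443, 3307 and 3495 in CF4, and changed by -2.18 ± 0.44 (log2 with SE, adjusted p = 0.00436). PSAT1 had 297, 232 and 254 in FAT, against 484, 420.4 and 478 in CF4, and changed by -0.82 ± 0.15 (log2 with SE, adjusted p = 0.00299). All 3 FAT libraries were below CF4 for ASNS and PSAT1, and FAT replicate 3 was the lowest for ASNS.

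PHGDH was higher in FAT, with 41.1, 20.3 and 28.9 normalized reads from 13, 7 and 19 reads, against 2.90, 4.80 and 3.24 in CF4. The change of 2.71 ± 0.39 (log2 with SE, adjusted p = 0.00093) turned to -0.17 (adjusted p = 0.756) under quantile normalization, while FAT was far below the 2401 to 4603 of the primary cultures. ATF4 had 19243, 13571 and 11057 in FAT, against 7994, 8368 and 8179 in CF4, so that all FAT libraries were above CF4. Its change of 0.80 ± 0.23 (log2 with SE, adjusted p = 0.0189) turned to -0.27 (adjusted p = 0.25) under quantile normalization and was lost under TMM and edgeR (0.0564 and 0.0765) and without any 1 CF4 library (0.0616 to 0.0699). CEBPB had 499.6, 491 and 318 in FAT, against 948, 953 and 898 in CF4, and changed by -1.13 ± 0.20 (log2 with SE, adjusted p = 0.00277). CHAC1 had 85.4, 116 and 35.0 in FAT, against 149, 142 and 146 in CF4. No FAT library reached CF4, but the change of -1.04 ± 0.43 (log2 with SE, adjusted p = 0.072) did not pass the test. It passed with TMM, edgeR, DESeq2 and quantile normalization (adjusted p = 0.0111 to 0.0337), with all 27 libraries in the fit (0.000589) and without FAT replicate 2 or 3 (0.0316 and 0.0266).

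The primary cultures differed from each other. CHAC1, SLC7A11, SLC7A1, ASNS and ATF4 were higher in CEF4 and PSAT1 was lower, which makes 6 of 9 genes called, where 40.7% of all rows were called, 18.2% higher and 22.6% lower. The median of the 9 genes was 0.34, against -0.02 over all rows. CHAC1 was 2.36-fold higher, 4273 ± 461 in CEF4 and 1809 ± 196 in CEF2 (SD, n = 3 each), a change of 1.24 ± 0.11 (log2 with SE, adjusted p = 1.42e-05). SLC7A11 was 220.2 ± 23.5 in CEF4 and 88.9 ± 9.12 in CEF2, a change of 1.30 ± 0.15 (log2 with SE, adjusted p = 7.14e-05). SLC7A1 changed by 1.11 ± 0.10 (log2 with SE, adjusted p = 1.09e-05) and PSAT1 by -0.51 ± 0.10 (log2 with SE, adjusted p = 0.0022). The smaller changes of ATF4, 0.34 ± 0.09 (log2 with SE, adjusted p = 0.0105), and ASNS, 0.39 ± 0.10 (log2 with SE, adjusted p = 0.0117), were not called under quantile normalization or with all 27 libraries in the fit, where CHAC1 and SLC7A1 alone were called and 29.8% of all rows were, 12.1% higher and 17.7% lower. PHGDH was 3102 ± 719 in CEF4 and 4049 ± 536 in CEF2, and its change of -0.40 ± 0.16 (log2 with SE, adjusted p = 0.073) passed only under quantile normalization, with DESeq2 or without CEF4 replicate 3 (0.0040 to 0.0296). Breed, the cartilage and muscle markers given above and the culture itself differ together here and cannot be told apart.

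The serine route was followed to its end with PSPH, the phosphatase of the last step, which was chosen for description after its values were seen. PSPH had 213, 302 and 287 normalized reads in SCF2, against 676, 805 and 678 in CEF2, and 410.00, 597 and 435 in SCF4, against 1343, 1342 and 1357 in CEF4. It changed by -1.44 ± 0.15 (log2 with SE, adjusted p = 4.43e-05) and -1.50 ± 0.15 (log2 with SE, adjusted p = 3e-05), so the 3 genes of the route fell in both lines but PHGDH by far more than the others. In CF2 and CF4, PSPH changed by -1.23 ± 0.08 (log2 with SE, adjusted p = 3.16e-07) and -2.02 ± 0.06 (log2 with SE, adjusted p = 7.86e-08) against the primary cultures. In SDF1 it had 827, 844 and 842, against 226, 229 and 373 in DF1, and rose by 1.64 ± 0.21 (log2 with SE, adjusted p = 0.0042), or by 1.88 ± 0.05 without DF1 replicate 3. In SDF1 both PSAT1 and PSPH were above their level in DF1, while PHGDH was at 50.1 to 57.0.

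ALDH1L2, a mitochondrial folate enzyme of one-carbon metabolism, was also nearly absent from the immortal lines. It had 3.00, 4.80 and 0.635 normalized reads in SCF2, against 450.4, 434 and 491 in CEF2, and 2.75, 2.17 and 1.28 in SCF4, against 1948, 2123 and 1743 in CEF4. The attached lines had 2.85, 3.46 and 3.07 in CF2 and 2.90, 7.75 and 2.06 in CF4, and SDF1 had 1.82, 0.711 and 1.86, against 3.49, 2.12 and 12.2 in DF1. FAT had 221, 212 and 1793, and its change against CF4 was 6.54 ± 0.90 (log2 with SE, adjusted p = 0.000835). In DF1 replicates 1 and 2, where PHGDH had 184 and 212, ALDH1L2 was as low as in lines 2 and 4.

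**Figure D4:**
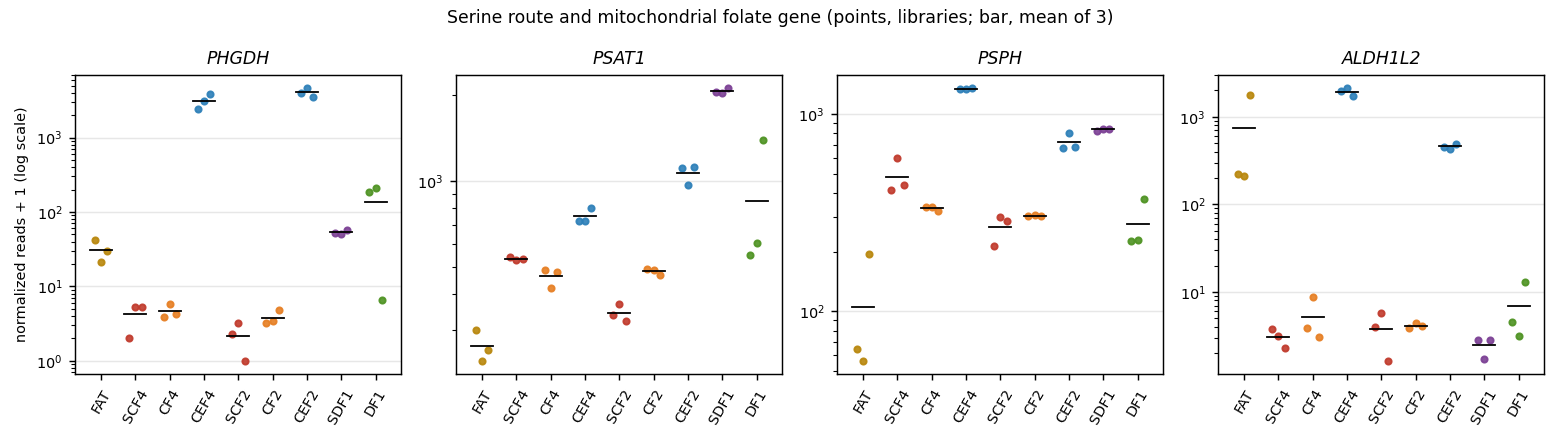
Normalized reads plus 1 (log scale) of the 3 genes of serine synthesis and of ALDH1L2 in each library, with a bar at the group mean. PHGDH and ALDH1L2 are low in all 12 libraries of lines 2 and 4, where PSAT1 and PSPH lie above 210.

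Other genes of the pathway were counted in lists by role. Their counts stand beside the shares of all rows called, which were 32.1% higher and 38.6% lower in SCF2 against CEF2, 30.8% and 33.7% in SCF4 against CEF4, 18.8% and 12.8% in SDF1 against DF1, 40.1% and 33.3% there without DF1 replicate 3, and 42.7% and 25.8% in FAT against CF4. Of 13 measured genes that control eIF2, the 4 kinases, eIF2 alpha itself, regulators of GCN2, a phosphatase subunit and the exchange factor subunits among them, 8 rose and 2 fell in suspension line 2 against its primary culture, and 5 rose and 4 fell in line 4. Their median log2 change was 0.35 and -0.05, against -0.06 and -0.02 over all rows. EIF2S1, which encodes eIF2 alpha, was higher in both suspension lines, by 1.20 ± 0.13 (log2 with SE, adjusted p = 6.02e-05) and 1.13 ± 0.13 (log2 with SE, adjusted p = 6.52e-05), and lower in SDF1, with a change of -1.03 ± 0.23 (log2 with SE, adjusted p = 0.0204). EIF2AK4, which encodes GCN2, rose in SCF2 by 0.98 ± 0.10 (log2 with SE, adjusted p = 5.25e-05). In line 4 it did not rise, with 663 ± 51.8 in SCF4 and 845 ± 66.8 in CEF4 (SD, n = 3 each). The lines differed by -1.33 ± 0.15 (log2 with SE, adjusted p = 1.27e-05) in this change, line 4 minus line 2. PPP1R15B, a subunit of the eIF2 alpha phosphatase, changed in SCF4 by -1.01 ± 0.11 (log2 with SE, adjusted p = 5.67e-05) and rose in SDF1 by 1.02 ± 0.20 (log2 with SE, adjusted p = 0.0134). In SDF1 against DF1, 2 of the 13 were higher and 6 lower, and in FAT against CF4 2 were higher and 7 lower, with EIF2AK3, which encodes PERK, changed by -2.30 ± 0.19 (log2 with SE, adjusted p = 8.25e-05). Without DF1 replicate 3, 3 were higher and 9 lower in SDF1, with changes of -1.28 ± 0.05 for EIF2S1 and 1.24 ± 0.05 for PPP1R15B.

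Among 6 measured transcription regulators of the response, 1 was higher and 4 were lower in both suspension lines against CEF, with medians of -0.84 and -1.05. DDIT3, the factor CHOP, had 74.1, 70.2 and 68.6 normalized reads in SCF2, against 672, 697 and 561 in CEF2, and 77.0, 84.8 and 65.1 in SCF4, against 719, 969 and 1381 in CEF4. Its groups were far apart, with changes of -3.16 ± 0.12 (log2 with SE, adjusted p = 9.84e-08) and -3.70 ± 0.23 (log2 with SE, adjusted p = 1.72e-06). ATF3, a stress-induced repressor, changed by -2.21 ± 0.13 (log2 with SE, adjusted p = 1.26e-06) in line 2 and -2.53 ± 0.09 (log2 with SE, adjusted p = 7.51e-08) in line 4, and TRIB1, a pseudokinase, rose by 2.22 ± 0.25 (log2 with SE, adjusted p = 7.84e-05) and 2.22 ± 0.27 (log2 with SE, adjusted p = 0.00011). The attached lines, from another deposited set, had 1 higher and 5 lower each against CEF. Of all rows, 34.5% were higher and 46.3% lower in CF2, and 32.8% and 40.3% in CF4. DDIT3 changed by -2.80 and -3.16 in CF2 and CF4, ATF3 by -3.06 and -2.23, and TRIB1 by 2.18 and 2.47. In SDF1 against DF1, 5 of the 6 were higher and 0 lower with a median of 1.18. DDIT3 had 621, 639 and 597 in SDF1, against 314, 362 and 164 in DF1, and rose by 1.22 ± 0.30 (log2 with SE, adjusted p = 0.0295), and KLF4 rose by 2.09 ± 0.30 (log2 with SE, adjusted p = 0.00554). Without DF1 replicate 3, 5 were higher and 1 lower with a median of 0.94, and the changes were 0.87 ± 0.07 for DDIT3 and 2.43 ± 0.08 for KLF4. With all libraries 1 was lower at an unadjusted p under 0.05 and 1 with edgeR. In FAT against CF4, 3 of the 6 were higher and 0 lower, with a median of 1.12. None was lower there at an unadjusted p under 0.05. KLF4 had the largest change, 3.43 ± 0.18 (log2 with SE, adjusted p = 1.47e-05). Under TMM, quantile normalization and edgeR, 2 were higher and 1 lower. Of 12717 rows, 4690, 3645 and 4847 were then higher and 4151, 4837 and 3973 lower.

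Of 11 measured genes of amino acid and one-carbon synthesis, which include PSPH and ALDH1L2, 2 rose and 8 fell in SCF2, and 2 rose and 9 fell in SCF4, each against its primary culture. Their medians were -1.18 and -1.50. GPT2, a mitochondrial alanine transaminase, changed by -3.39 ± 0.16 (log2 with SE, adjusted p = 3.4e-07) and -3.91 ± 0.20 (log2 with SE, adjusted p = 4.61e-07). In CF2 and CF4 against CEF it changed by -4.45 and -4.57. SHMT1, a cytosolic enzyme that interconverts serine and glycine, rose in line 2 by 1.97 ± 0.18 (log2 with SE, adjusted p = 2.2e-05). In SDF1 against DF1, 6 were higher and 1 lower, with GPT2 at 282 ± 15.8 in SDF1 and 45.0 ± 13.1 in DF1 (SD, n = 3 each), a rise of 2.66 ± 0.24 (log2 with SE, adjusted p = 0.00152), or of 2.85 ± 0.14 without DF1 replicate 3, when 8 were higher and 1 lower. In FAT against CF4, 4 were higher and 5 lower, and GLUL, glutamine synthetase, had 4136, 4705 and 5679.9 normalized reads in FAT, against 2.25, 1.11 and 1.77 in CF4, a change of 10.81 ± 0.24 (log2 with SE, adjusted p = 2.9e-06).

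Of the other amino acid carriers, 0 rose and 8 fell of 11 tested in SCF2, and 2 rose and 8 fell of 11 in SCF4, each against its primary culture, with medians of -0.75 and -0.70. None in SCF2 was higher at an unadjusted p under 0.05 or with edgeR. Under quantile normalization 1 was higher and 7 lower, where 5428 of 12572 rows were called higher and 3681 lower. SLC6A6, the taurine carrier, was 0.640 ± 0.642 in SCF2 and 153 ± 13.2 in CEF2, and 2.34 ± 1.32 in SCF4 and 184 ± 5.95 in CEF4 (SD, n = 3 each). The changes were -6.63 ± 0.32 (log2 with SE, adjusted p = 4.31e-07) and -5.86 ± 0.30 (log2 with SE, adjusted p = 5.29e-07). In CF2 and CF4 against CEF they were -7.02, with 2 reads in CF2, and -2.29. SLC7A3, a carrier of cationic amino acids like SLC7A1, changed in SCF4 by -1.999 ± 0.16 (log2 with SE, adjusted p = 8.69e-06). In SDF1 against DF1, 3 were higher and 1 lower of 9. The lower one was SLC6A6, with the largest change, -3.28 ± 0.70 (log2 with SE, adjusted p = 0.0182), and 2.42 ± 0.75 in SDF1 and 44.0 ± 44.8 in DF1 (SD, n = 3 each). SLC1A4, a carrier of alanine, serine and cysteine, rose by 1.79 ± 0.10 (log2 with SE, adjusted p = 0.000758). SLC7A5, the light chain of the large neutral amino acid carrier, rose by 1.15 ± 0.32 (log2 with SE, adjusted p = 0.0408). Without DF1 replicate 3 the changes were -2.50 ± 0.28 for SLC6A6, 1.72 ± 0.05 for SLC1A4 and 0.79 ± 0.06 for SLC7A5. In that fit 4 carriers were higher and 2 lower. In FAT against CF4, 4 were higher and 7 lower of 12. SLC7A2 had the largest change, a rise of 6.79 ± 0.64 (log2 with SE, adjusted p = 0.000158). It was 139 ± 110 in FAT (SD, n = 3), from 224 reads, and had no read in CF4. SLC6A9 changed by -5.47 ± 0.27 (log2 with SE, adjusted p = 1.09e-05). SLC7A5 was 150.3 ± 45.1 in FAT and 3554 ± 119 in CF4 (SD, n = 3 each), a change of -4.59 ± 0.22 (log2 with SE, adjusted p = 1.05e-05). The median there was -1.58, and -1.06 with 2 carriers that had no read in 1 of the groups set to a bound of 3 reads, against -2.59 with edgeR and -2.48 under quantile normalization.

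Of 19 measured cytosolic tRNA synthetase genes, 3 rose and 10 fell in SCF2 and 3 rose and 8 fell in SCF4, each against its primary culture. Their medians were -0.21 and -0.16, against -0.06 and -0.02 over all rows. Under quantile normalization they were -0.25 and -0.13, against 0.20 and 0.17. IARS, for isoleucine, changed in SCF2 by -1.73 ± 0.09 (log2 with SE, adjusted p = 9.52e-07) and GARS, for glycine, in SCF4 by -1.80 ± 0.09 (log2 with SE, adjusted p = 3.08e-07). In SDF1 against DF1, 3 were higher and 5 lower, against 12 and 6 without DF1 replicate 3. In FAT against CF4, 1 was higher and 6 lower, against 1 and 13 under quantile normalization, TMM and edgeR alike. Of all 12717 rows there, 3281 were called lower, against 4837, 4151 and 3973 in these settings. Of 9 measured effectors, 0 were higher in either suspension line and 6 and 5 were lower. None was higher at an unadjusted p under 0.05 or with edgeR. Under quantile normalization 1 was higher in each line, where 5428 of 12572 and 4591 of 12098 rows were called higher. GDF15, a secreted stress hormone, was 30.3 ± 2.30 in SCF2 and 1188 ± 95.3 in CEF2, and 11.0 ± 2.18 in SCF4 and 578 ± 77.6 in CEF4 (SD, n = 3 each), with changes of -5.25 ± 0.11 (log2 with SE, adjusted p = 6.34e-09) and -5.61 ± 0.20 (log2 with SE, adjusted p = 6.15e-08). In SDF1 it was 65.3 ± 4.03, against 9.06 ± 4.13 in DF1, a change of 2.81 ± 0.35 (log2 with SE, adjusted p = 0.0038), or of 2.48 ± 0.18 without DF1 replicate 3. CDKN1A, an inhibitor of the cell cycle, was 28.7 ± 7.62 in SCF2 and 1712 ± 212 in CEF2, and 31.0 ± 6.005 in SCF4 and 2232 ± 519.8 in CEF4. It changed by -5.87 ± 0.19 (log2 with SE, adjusted p = 5.8e-08) and -6.12 ± 0.20 (log2 with SE, adjusted p = 3.91e-08). Of the 9 effectors, 2 were higher and 2 lower in SDF1 against DF1, against 4 and 4 without DF1 replicate 3, and 5 higher and 1 lower in FAT against CF4. From CF2 to SCF2, 4 rose and 3 fell for eIF2 control, 2 and 2 for regulators and 5 and 2 for synthesis. Carriers had 0 and 4, synthetases 6 and 5 and effectors 2 and 3. From CF4 to SCF4, 5 rose and 3 fell for eIF2 control, 1 and 3 for regulators and 8 and 0 for synthesis. There carriers had 1 and 7, synthetases 9 and 1 and effectors 2 and 2. Of all rows, 31.6% were higher and 22.5% lower in line 2, and 34.1% and 22.3% in line 4. Synthesis in line 4 had 4 and 1 with edgeR and with TMM, and 5 and 1 under quantile normalization. Of 11174 rows, 3106, 3016 and 3167 were higher and 2996, 3033 and 2858 lower in these settings, in the same order.

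Over the 9 group means of log2 values, CHAC1 moved most closely with SLC7A11 (Pearson r = 0.914), ASNS with SLC7A1 (0.905) and PSAT1 with ASNS (0.834), while ATF4 mRNA had r between -0.408 and 0.295 with the other 8 genes. PHGDH had r = 0.520 with PSAT1, 0.254 with ASNS and -0.403 with SLC38A2. With DF1 replicate 3 left out these were 0.905 for CHAC1 with SLC7A11, 0.927 for ASNS with SLC7A1, 0.829 for PSAT1 with ASNS and -0.334 to 0.188 for ATF4. PSAT1 was then closer to CHAC1 (0.857), CEBPB (0.843) and SLC7A11 (0.832) than to ASNS. Among 10531 other named rows with at least 1 group mean of 50 or more, the closest to ASNS were BYSL, a ribosome assembly factor (r = 0.981), DDAH1, which breaks down methylated arginine (0.971), and FBN2, a fibrillin (0.970). When that library was left out, BYSL had r = 0.826 and rank 250, FBN2 0.911 and rank 37, and DDAH1 0.966 and rank 2. BYSL and FBN2 were thus among the closest 3 rows to ASNS only with that library. The closest to CHAC1 were ENTPD4, a nucleotide-hydrolysing enzyme of the Golgi (0.941), IFT172, a transport protein of cilia (0.940), and PROS1, the anticoagulant protein S (0.931), with 0.944, 0.927 and 0.930 and ranks 1, 7 and 4 without that library. These correlations describe 9 points that share lines and normalization, the best of many rows are high by selection, and they carry no test. Among these points FAT had the highest mean of ATF4 and the lowest of CHAC1, ASNS, SLC7A1, SLC7A11, SLC38A2 and PSAT1. Correlations without FAT were not computed, so the values above need not hold among the cultured groups alone.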

How the data were processed

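Total RNA of 27 samples of chicken fibroblasts and FAT was made into libraries with a NuGEN Trio kit and read paired-end on HiSeqX, per the labels' protocols. The submitters' processing notes list the tools Bowtie2, RSEM and DESeq2 and the galGal6 build, and give them no versions, roles or order. The main table, as deposited by the authors, holds a normalized signal for 14161 gene symbols in 27 libraries. In each library every value was a whole multiple, within 0.01, of what 1 read was worth, so whole reads were recovered for 100% of values. The authors also deposited a table of raw counts (24356 genes, 12 libraries, 23.4 to 53.4 M counts per library), which has no symbols and was used here for totals: recovered reads were 72.9% of the deposited counts in SCF4 replicate 3 and 51.7% to 55.8% in the other 11. Authors' deposited tables of CEF2 with SCF2 and CEF4 with SCF4 hold a log2 fold change, a mean signal, a score (the test statistic) and p-values per gene, and the score was not used.

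Groups follow the labels. Log2 of the normalized value plus 1 was tested with limma 3.58.1 (trend, robust) in R 4.3.3, with the compared groups in each fit, rows with at least 1 normalized read in at least 3 fitted libraries, and p-values adjusted over all rows by the Benjamini-Hochberg method. Genes were called at an adjusted p under 0.05. The scripts were tested on simulated data. Nothing in the labels says that the 3 biological replicates of an immortal line were separate derivations, so the p-values measure only the spread between these libraries. Between libraries of 1 group the chi-square of the recovered reads had a median per row of 0.633 to 1.44 in CF2, CF4 and SDF1 and a mean of 2.32 to 10.5, above the mean of about 1 that counting error gives, so each library was kept as 1 replicate.

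Alternatives were a fit of all 27 libraries, a pseudocount of 5, no filter and a stricter filter, TMM scaling, quantile normalization, edgeR 4.0.16 and DESeq2 1.42.0 on the recovered reads, a replicate block, and each library left out in turn. Group orders, ranges, correlations and list counts without DF1 replicate 3 were added after the data were seen. On the recovered reads edgeR called 8854 of 12572 rows in SCF2 against CEF2, 7748 in SCF4 against CEF4, 3654 in SDF1 against DF1 and 8820 in FAT against CF4. A change of sign in a value that passed no test was not counted as a reversal. The count interval covers counting error only, and a fold against a group with no read uses a floor of 3 reads over the group. The 10 genes and the pathway lists were chosen with earlier results of these data known. All members with a row are named. From each list up to 3 genes per comparison were named, from among the 3 called with the largest change and not always all 3. PSPH was added after its values were seen. 17 rows whose symbols had turned into dates were kept in the fits and not named.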

Additional observations from a re-analysis of the deposited data

Results flagged for a closer look

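For 5 of the 9 genes, suspension against primary cells gave unequal changes in line 4 and line 2 in a limma test of the difference (line 4 minus line 2, log2). It was -1.41 for CHAC1, -2.31 for SLC7A11 and -0.95 for SLC7A1, which fell more or alone in line 4, and 1.92 for CEBPB and 1.14 for PSAT1, which fell more or alone in line 2. All 5 passed an adjusted p of 0.05, and the libraries behind them are given above. Of all rows, 39.2% passed, 22% with a more positive and 17.3% with a more negative change in line 4. The primary cultures differed too, CEF4 minus CEF2, by 1.24 for CHAC1, 1.30 for SLC7A11, 1.11 for SLC7A1 and -0.51 for PSAT1. For CEBPB they did not in the limma test (adjusted p = 0.206). The part of the primary cultures in the unequal changes was not tested.

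The change from attached growth to suspension differed between DF1 and the mean of lines 2 and 4 for 7 of the 9 genes (DF1 minus lines, log2). Of all rows, 46.2% differed, 22.7% with a more positive and 23.5% with a more negative change in DF1. The difference was 3.67 for CHAC1, 3.83 for SLC7A11, 2.96 for CEBPB, 2.42 for SLC7A1, 1.83 for SLC38A2, 1.56 for PSAT1 and 1.31 for ASNS. In lines 2 and 4 the suspension and attached libraries come from different deposited sets, which cannot be told apart from growth mode. In DF1, medium and line cannot be told apart from it either. The ASNS value was 2.01 without DF1 replicate 3. The ASNS call was lost with edgeR (adjusted p = 0.114), with DESeq2 (0.0991) and without any 1 of the other 5 SDF1 and DF1 libraries (0.0511 to 0.0912).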

How the results depend on the processing

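Each of the 9 changes in the 11 comparisons, 99 values in all, was recomputed. They kept the side of the threshold, and the direction of any call, for 99 of 99 without a filter and 97 of 97 with a stricter filter. Of 99 values, 97 did so with a pseudocount of 5, 93 with TMM, 90 with edgeR and 90 with DESeq2. The count was 85 with quantile normalization and 82 with all 27 libraries in the fit. Counted as kept were values that changed sign but passed no test: 1 with a pseudocount of 5, 2 each with TMM, edgeR and DESeq2, and 5 with quantile normalization. Under quantile normalization ATF4 turned to -0.27 and PHGDH to -0.17 in FAT against CF4, and ATF4 to 0.087 in CF4 against CEF4. With all 27 libraries fitted, the number of genes called was 2 in SCF2 against CF2, 3 in SCF4 against CF4 and 2 in CEF4 against CEF2. Of all rows, 31.9%, 31.3% and 29.8% were called in these fits. The cause was not tested.

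With 1 library left out in turn, 706 of 756 values kept the side of the threshold and the direction of any call. These include 8 values that changed sign but passed no test. The number called ranged over 6 to 8 in SCF2 against CEF2, 6 to 7 in SCF4 against CEF4, 4 to 9 in SDF1 against DF1, 6 to 9 in FAT against CF4, 4 to 7 in SCF2 against CF2, 3 (without CF4 replicate 3) to 7 in SCF4 against CF4 and 6 to 8 in CEF4 against CEF2. It was 7 throughout in CF2 and CF4 against CEF, 5 to 6 for the line difference and 6 to 9 for the step difference, where PHGDH ranged from -1.28 without DF1 replicate 3 to 1.23 without DF1 replicate 2. The share of all rows called in these fits moved as well. It was 60.6% to 72.7% in SCF2 against CEF2, 54.9% to 61.7% in SCF4 against CEF4, and 11.8% to 73.4% in SDF1 against DF1. FAT against CF4 had 57.8% to 78.0%, SCF2 against CF2 42.2% to 65.6%, and SCF4 against CF4 44.1% to 64.6%. CEF4 against CEF2 had 30.35% to 43.8%, CF2 against CEF2 76.4% to 80.1%, and CF4 against CEF4 65.4% to 75.1%. The line difference had 33.6% to 39.3% and the step difference 39.9% to 62.7%.

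Replicate numbers did not pair the libraries, since the deviations of same-numbered libraries from their group means correlated at -0.267 to 0.144 and no comparison had every pair over 0.1. With a replicate block, 8, 6, 5 and 8 of 9 genes were called in SCF2 against CEF2, SCF4 against CEF4, SDF1 against DF1 and FAT against CF4. Of all rows, 69.9%, 61.2%, 15.0% and 66.1% were called there in the same order. With the block 3 calls changed: PSAT1 in SDF1 against DF1 was lost (adjusted p = 0.0526), and SLC7A1 in SCF2 against CEF2 (0.0379) and SLC7A11 in SCF2 against CF2 (0.0322) were gained. The planned edgeR fit of the deposited counts was not run, since no table here pairs its gene IDs with symbols. Depth limits PHGDH in lines 2 and 4, and SLC7A11, SLC7A1 and PHGDH in FAT, each with few reads.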
